A study of Rattus norvegicus with 8 samples.

Results

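MHC class I molecules carry short peptides from inside the cell to its surface, where CD8 T cells and natural killer cells read them. The 7 genes described here stand for the steps of this route: *B2m*, the light chain shared by class I molecules, *Tap1* and *Tap2*, the partner subunits of the transporter that moves peptides into the endoplasmic reticulum, *Psmb8* and *Psmb9*, catalytic subunits of the immunoproteasome that cuts proteins into peptides, and the rat class I heavy-chain genes *RT1-S3* and *RT1-M6-1*. They were found by NCBI GeneID (24223, 24811, 24812, 24968, 24967, 294228 and 414785, in that order) and are 7 of the 22601 genes in each file. All 7 passed the filter of a mean of at least 0.1 FPKM, the number of fragments scaled by transcript length and by library size. The set was chosen with earlier results of these libraries in view. *RT1-S3* and *RT1-M6-1* were selected on the contrast of PTZ with Con. in these same libraries, so their values are given as a description. No p, standard error or interval of a group difference is printed for them, and a count that includes them is no test.

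Hippocampal mRNA was sequenced from 8 Wistar rats, labelled wild type, with 1 library per rat. Con. rats (n = 3) received vehicle only. PTZ rats (n = 3) were kindled with pentylenetetrazol, a convulsant that blocks the GABA-A receptor, at 35 mg/kg every 48 h for 28 days, with 60 mg/kg on the last day, and then received the solvent. Q808 rats (n = 2) were kindled in the same way and then given the compound Q808 by gavage at 30 mg/kg daily for 28 days, and both kindled groups received 1 further sub-convulsive dose of PTZ before tissue was taken. Rats weighed 180 to 220 g, and no age or sex was found in the labels or methods. Each library comes from bulk dissected hippocampus, so fewer cells of a type and less RNA per cell cannot be told apart.

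In most brain cells class I genes are kept low, and interferons raise the heavy chain, *B2m*, the transporter and the immunoproteasome together through regulators such as IRF1 and NLRC5. Microglia and blood vessel cells usually hold more class I RNA than neurons. Neuronal class I molecules are also known for a part in synapse pruning and plasticity.

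The 8 libraries agreed closely over all genes, with Spearman correlations between 0.966 and 0.986. A set of 3 libraries stood apart: Con.-3, PTZ-3 and Q808-1 had a mean log2 level of 6 striatum markers between 5.53 and 6.97, against 1.13 to 2.16 in the other 5, and a mean of 4 dentate granule cell markers between 1.20 and 1.37, against 2.60 to 3.04. High striatal and low dentate markers go against the hippocampal label of those 3 libraries, and the members, and the lists whose calls change, are given with and without them. Choroid plexus genes moved between libraries too: *Ttr* ran from 87.4 FPKM in Con.-3 to 6301 FPKM in Q808-2. Whole reads were recovered from the FPKM for 99.93% of the 15593 genes tested, giving 11522012 to 16478062 reads per library, so the smallest member values rest on very few reads. Intervals on reads are 95% Poisson intervals and cover counting error only.

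A short sequence was shared by 5 of the 7 promoters. The interferon-stimulated response element is the DNA site bound by interferon-activated transcription factors, and its core was searched for as GAAA, any 2 bases, GAAA on both strands (TTTC, any 2 bases, TTTC when read on the other strand) in the 300 bases from 250 before to 50 after each RefSeq start site in GRCr8. It was present in 5 of the 7 members (71.4%), in 3.92% of 33469 promoters in the table, and in 2.92% of the 12239 promoters of tested genes. The 5 windows are shown, with the core in capitals. The members were chosen as genes of a route that interferons raise, so this share is a description and no test.
B2m, chr3:129549165-129549204, plus strand: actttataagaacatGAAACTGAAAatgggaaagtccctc
Tap1, chr20:4668640-4668679, minus strand: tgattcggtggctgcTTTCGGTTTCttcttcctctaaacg
Tap2, chr20:4652313-4652352, minus strand: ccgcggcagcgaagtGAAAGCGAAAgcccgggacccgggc
Psmb8, chr20:4657026-4657050, minus strand: tcttggtgctgtggcTTTCGCTTTC
RT1-S3, chr20:2675401-2675440, plus strand: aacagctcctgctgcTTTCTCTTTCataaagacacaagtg

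The core ends 140 bases before the start site in *B2m*, 111 in *Tap1*, 31 in *Tap2* and 102 in *RT1-S3*, and in *Psmb8* it runs across the start site. The windows of *Psmb9* and *RT1-M6-1* held no match, which says only that these letters are not in those 300 bases. Among the pathway lists, 11 of 12 interferon-induced genes held the core, against 2 of 23 other class I genes and none of 10 class II genes. Between these lay 1 of 5 class I-like genes, 1 of 5 peptide-loading genes, 2 of 7 proteasome counterparts and activators and 3 of 16 regulators. *Tap2*, *Psmb8*, *Tap1* and *Psmb9* lie next to each other in that order on chromosome 20. *Tap1* and *Psmb9* are divergent, with 457 bases between their start sites, so their windows overlap by 44 bases. A match is a description of letters, and binding was not measured.

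The light chain was by far the most abundant member. Across the 8 libraries the mean FPKM of *B2m* was 180.5, the 348th highest of 22601 genes, while the other 6 had means from 0.271 to 6.995 FPKM. By FPKM, which is per length, the order of mean levels was *B2m*, *RT1-S3*, *Psmb9*, *Psmb8*, *Tap1*, *RT1-M6-1* and *Tap2*. *Psmb8* (0.545 to 6.74 FPKM) and *Tap1* (1.37 to 2.44 FPKM) overlapped across libraries, as did *Psmb9* (2.33 to 6.76 FPKM) and *Psmb8*.

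**Figure D1:**
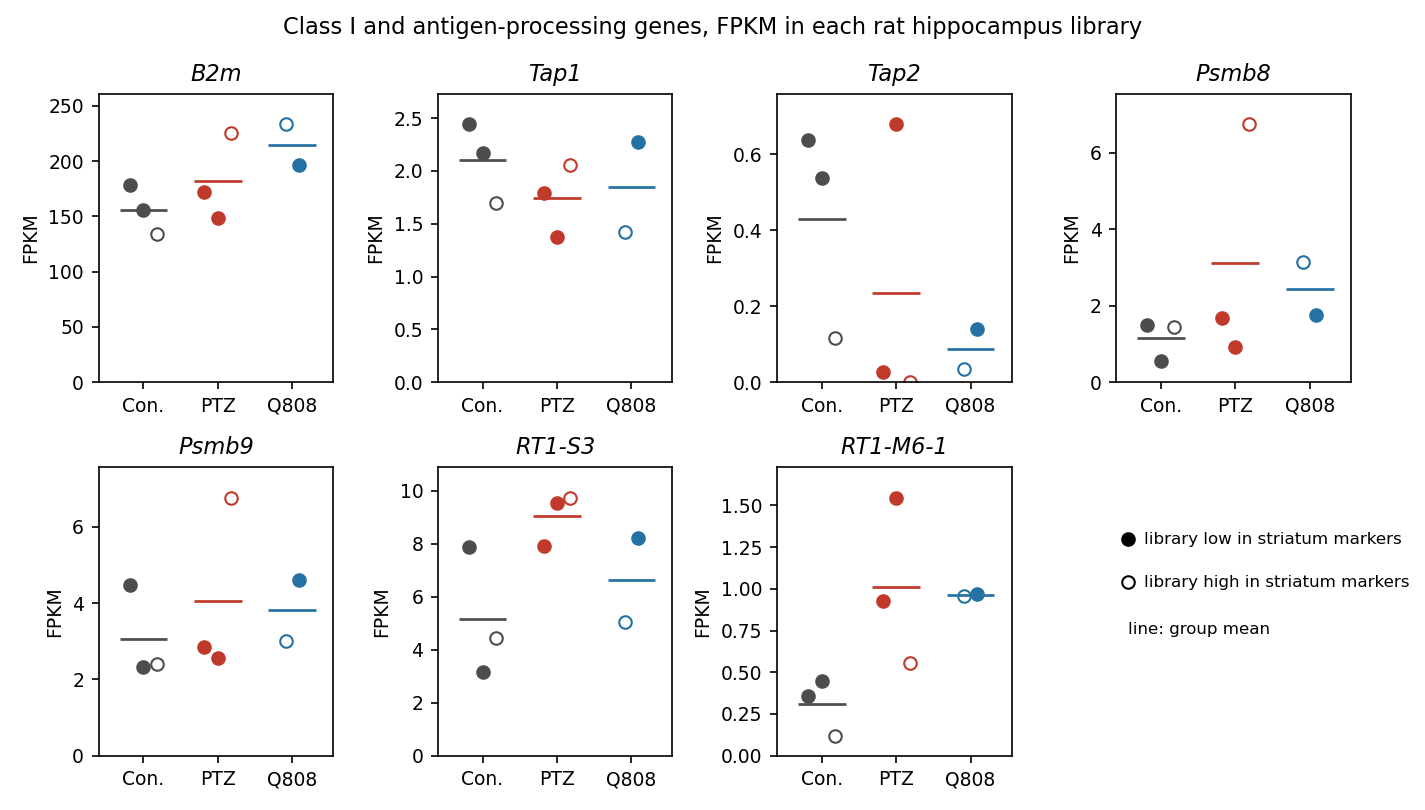
FPKM (vertical axes, each starting at 0) of the 7 genes in the Con., PTZ and Q808 libraries, with a line at each group mean. Open circles are the 3 libraries high in striatum markers. Every PTZ and Q808 point of *RT1-M6-1* lies above every Con. point, the nearest being 0.554 FPKM in PTZ-3 and 0.449 FPKM in Con.-2, and the highest *Psmb8* and *Psmb9* points are both PTZ-3.

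*B2m* was 178, 156 and 134 FPKM in Con.-1, Con.-2 and Con.-3, 172, 148 and 226 FPKM in PTZ-1, PTZ-2 and PTZ-3, and 233 and 197 FPKM in Q808-1 and Q808-2. Con. and PTZ overlapped, and both Q808 libraries lay above all 3 Con. libraries. These values rest on 3468 to 5309 reads, so counting error is small beside the spread between rats. The mean was 156 ± 21.9 (SD, n = 3) in Con., 182 ± 39.5 (SD, n = 3) in PTZ and 215 ± 25.9 (SD, n = 2) in Q808. On the log2(FPKM + 0.1) scale, the difference was 0.21 ± 0.19 (SE) for PTZ against Con., 0.26 ± 0.24 for Q808 against PTZ and 0.47 ± 0.20 for Q808 against Con., none of which passed the test. Q808 against Con. is a fold of 1.38 with a 95% interval of 0.983 to 1.94, and its adjusted p was 0.901 (limma, Benjamini-Hochberg over 15593 genes). Without the 3 striatum-high libraries the 3 differences were -0.06, 0.30 and 0.24, so *B2m* showed no stable direction between PTZ and Con.

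*Tap1* was the steadiest of the 4 low processing genes. It was 2.44, 2.17 and 1.69 FPKM in Con., 1.80, 1.37 and 2.06 FPKM in PTZ, and 1.42 and 2.28 FPKM in Q808, on 47 to 98 reads. The 3 groups overlapped, and the lowest and highest libraries differed by 1.78-fold. The log2 difference was -0.26 ± 0.27 (SE) for PTZ against Con., 0.06 ± 0.37 for Q808 against PTZ and -0.19 ± 0.32 for Q808 against Con. The 95% interval for PTZ against Con. ran from -0.90 to 0.38, an interval that holds both a fall and a small rise. Without the striatum-high libraries the 3 differences were -0.52, 0.51 and -0.01, and none passed.

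*Tap2* rested on 5 reads or fewer in most libraries, and its reads split sharply within groups. It was 0.637, 0.536 and 0.117 FPKM in Con., 0.0268, 0.678 and 0 FPKM in PTZ, and 0.0334 and 0.140 FPKM in Q808. These are 22, 22 and 4 reads in Con., 1, 26 and 0 reads in PTZ, and 1 and 5 reads in Q808. Con.-1, Con.-2 and PTZ-2 were high and the other 5 were low, so each of Con. and PTZ held both kinds of library. The log2 difference was -1.12 ± 0.88 (SE) between PTZ and Con. and -1.38 ± 0.67 between Q808 and Con., and neither passed the test. *Tap2* fell by 2.05 on the log2 scale and passed the threshold for PTZ against Con. only when PTZ-2 was left out. For Q808 against Con. it passed without the 3 striatum-high libraries (-1.52), with the striatum markers as a covariate (-1.35), and with the replicate block or without Con.-3 (-1.94 in both). Without the striatum-high libraries it was -1.12 between PTZ and Con. and -0.39 between Q808 and PTZ. *Tap1*, whose protein pairs with that of *Tap2*, did not split in this way.

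*Psmb8* differed by 12.4-fold between its highest and lowest library. It was 1.49, 0.545 and 1.44 FPKM in Con., 1.67, 0.932 and 6.74 FPKM in PTZ, and 3.13 and 1.75 FPKM in Q808. Its reads were 23, 10 and 22 in Con., 28, 16 and 89 in PTZ, and 42 and 28 in Q808. Con. and PTZ overlapped, PTZ-3 was the highest of the 8 libraries, and both Q808 libraries were above all Con. libraries. The log2 difference was 1.00 ± 0.73 (SE) for PTZ against Con., 0.07 ± 0.80 for Q808 against PTZ and 1.07 ± 0.52 for Q808 against Con., and none passed the test, with adjusted p of 0.999, 0.989 and 0.901 (limma). Without the striatum-high libraries the 3 differences were 0.42, 0.45 and 0.87, so much of the PTZ mean rested on PTZ-3.

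*Psmb9* followed *Psmb8* only in part. It was 4.46, 2.33 and 2.41 FPKM in Con., 2.84, 2.56 and 6.76 FPKM in PTZ, and 3.02 and 4.60 FPKM in Q808, on 31 to 75 reads. PTZ-3 was again the highest, but Q808-1, the next highest for *Psmb8*, lay below Q808-2 and Con.-1. The groups overlapped, and the log2 difference was 0.32 ± 0.44 (SE) for PTZ against Con., 0.02 ± 0.48 for Q808 against PTZ and 0.34 ± 0.38 for Q808 against Con. Its sign for PTZ against Con. turned to -0.25 without the striatum-high libraries, where Q808 against PTZ was 0.75 and passed the threshold, and Q808 against Con. was 0.50.

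Set against the constitutive subunits they replace, the immunoproteasome genes were minor. *Psmb8* was 0.445 to 5.28% of *Psmb5* FPKM, *Psmb9* was 2.51 to 6.45% of *Psmb6* FPKM, and *Psmb10*, the other such subunit, was 11.3 to 20.2% of *Psmb7* FPKM. The *Psmb10* share was 12.8 ± 1.49% (SD, n = 3) in Con., 15.3 ± 0.731% (n = 3) in PTZ and 17.4 ± 4.02% (n = 2) in Q808. All Con. libraries were below all PTZ libraries for this share, by a small margin from 14.3% in Con.-3 to 14.8% in PTZ-1, and no test was run on it.

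**Figure D2:**
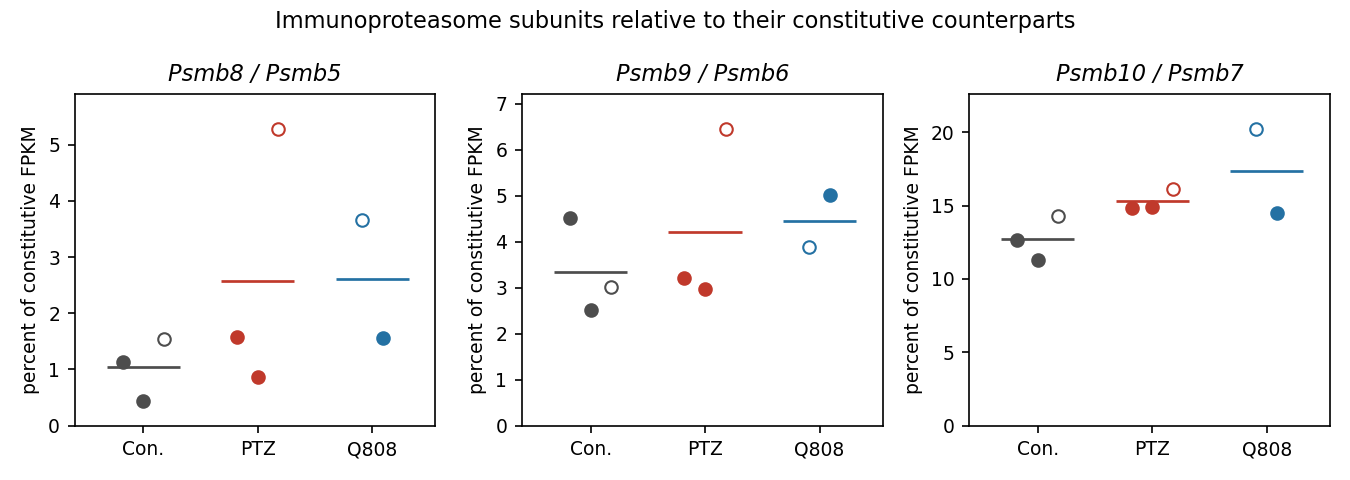
FPKM of *Psmb8*, *Psmb9* and *Psmb10* as a percent of *Psmb5*, *Psmb6* and *Psmb7* (vertical axes from 0) in the Con., PTZ and Q808 libraries, with a line at each group mean and open circles for libraries high in striatum markers. PTZ-3 is highest for *Psmb8* and *Psmb9*, and Q808-1 is highest for *Psmb10* at 20.2%.

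The class I heavy-chain gene *RT1-S3* was 7.87, 3.18 and 4.45 FPKM in Con., 7.91, 9.54 and 9.73 FPKM in PTZ, and 5.05 and 8.23 FPKM in Q808, on 148 to 416 reads. All 3 PTZ libraries were above all Con. libraries, but Con.-1 and PTZ-1 nearly touched, and the Q808 libraries lay across both groups. The mean was 5.16 ± 2.43 (SD, n = 3) in Con., 9.06 ± 0.998 (n = 3) in PTZ and 6.64 ± 2.24 (n = 2) in Q808. The log2 difference was 0.89 for PTZ against Con., -0.48 for Q808 against PTZ and 0.41 for Q808 against Con. For PTZ against Con. it was 0.78 in the 4 striatum-low libraries and 1.11 between the 2 striatum-high ones. Without the striatum-high libraries, Q808 against PTZ was -0.08 and Q808 against Con. was 0.70, each with 1 Q808 library left.

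*RT1-M6-1* was a low class I heavy-chain gene that lay higher in kindled than in control rats. It was 0.355, 0.449 and 0.119 FPKM in Con., 0.930, 1.55 and 0.554 FPKM in PTZ, and 0.956 and 0.970 FPKM in Q808. These are only 6, 9 and 2 reads in Con., 17, 29 and 8 reads in PTZ, and 14 and 17 reads in Q808. The Poisson intervals of single libraries overlap (Con.-2, 4.12 to 17.1 reads, PTZ-3, 3.45 to 15.8 reads). PTZ and Q808 libraries overlapped each other and all lay above all Con. libraries. The log2 difference was 1.45 for PTZ against Con., 0.04 for Q808 against PTZ and 1.48 for Q808 against Con. It was 1.38 and 1.58 for PTZ against Con. in the striatum-low and striatum-high libraries, and Con.-3, at 2 reads, was the lowest library. Without the striatum-high libraries, Q808 against PTZ was -0.28 and Q808 against Con. was 1.10.

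Counted together, 2 of the 7 genes (*RT1-S3* and *RT1-M6-1*, both higher) passed an unadjusted p under 0.05 and a change over 1.5-fold for PTZ against Con. The rule that chose these 2 genes used this contrast, so the count is printed beside the share of all tested genes that passed, 2.53%, and nothing is read from it. With the replicate number of the labels as a block, 616 of 15593 genes passed, against 395 without the block. Deviations of same-numbered libraries correlated at 0.21, 0.30 and 0.42, but the labels name no pairing of rats. The count moved between 0 and 2 when 1 library was left out: it did not include *RT1-S3* without Con.-2, Con.-3, PTZ-2 or PTZ-3, nor *RT1-M6-1* without Con.-3, PTZ-1 or PTZ-2, and it was 0 without Con.-3. The groups did not overlap for the same 2 genes, as for 9.15% of all tested genes. For Q808 against PTZ none of the 7 passed and none had groups that did not overlap, beside 1.92% and 15.6% of all genes. At an unadjusted p under 0.05 without the fold threshold the member count was also 0, and limma-voom on the recovered reads gave 0. For Q808 against Con., which shares the Con. libraries with the first contrast, 1 member passed (*RT1-M6-1*), beside 3.46% of all genes, and nothing is read from this count either. It did not include *RT1-M6-1* without either Q808 library, after quantile normalization or under the replicate block, where the 2 members that passed were *Tap2* (-1.94, lower) and *Psmb8* (1.27, higher). *B2m*, *Psmb8* and *RT1-M6-1* did not overlap there, beside 20.0% of all genes. No gene of the 15593 reached an adjusted p under 0.05 for PTZ against Con. or Q808 against PTZ, and 1 did for Q808 against Con. (limma, Benjamini-Hochberg). At an unadjusted p under 0.05 these counts were 589, 341 and 667, and by limma-voom on recovered reads 0 genes passed the adjustment in each comparison and 608, 430 and 709 had an unadjusted p under 0.05.

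**Figure D3:**
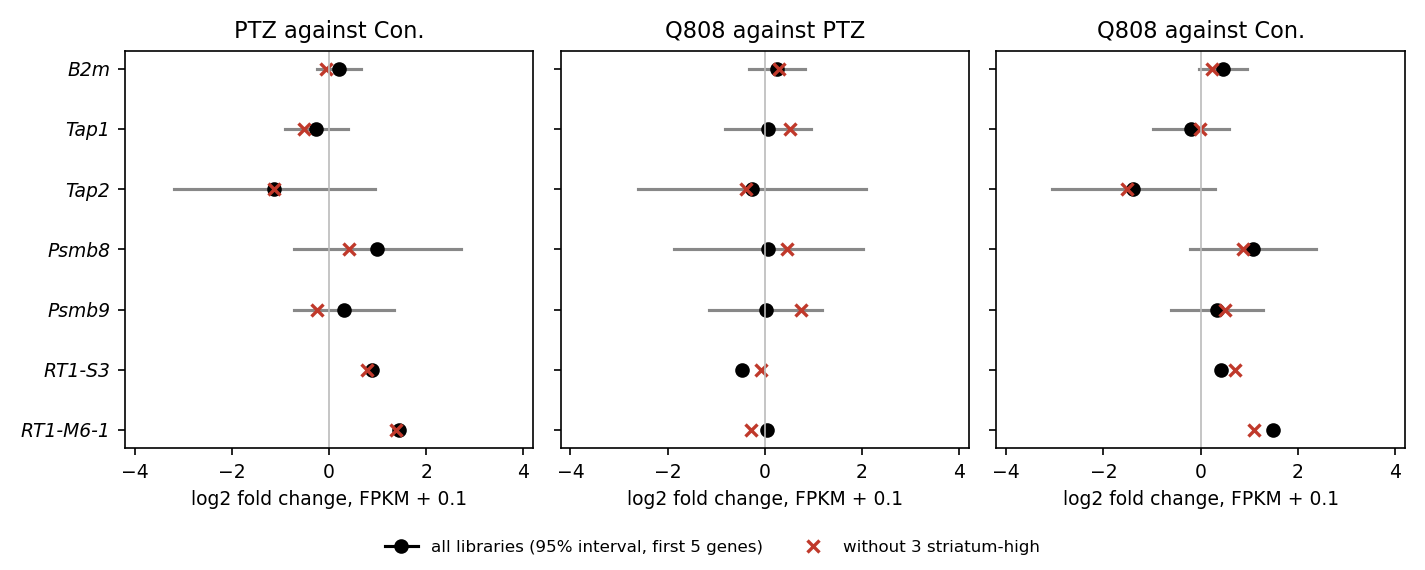
Log2 fold change on the FPKM + 0.1 scale (horizontal axes) of the 7 genes in the 3 comparisons, with values over all libraries (black points), 95% limma intervals for the 5 genes that were not selected on PTZ against Con. (lines), and values without the 3 striatum-high libraries (crosses). The intervals of *B2m*, *Tap1*, *Tap2*, *Psmb8* and *Psmb9* cross 0 in all 3 comparisons, and the *Psmb9* cross for PTZ against Con. is at -0.25.

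None of the genes that load peptide onto class I molecules passed with all libraries. Once the striatum-high libraries were left out, 1 of the 7 passed, *Tapbpl*, higher for Q808 against PTZ, beside 9.26% of all genes. The 7 tested ran from the chaperones *Calr* and *Pdia3* to the tapasins *Tapbp* and *Tapbpl* and the trimming enzyme *Erap1*, and their median log2 difference for PTZ against Con. was -0.06, beside -0.04 over all genes. *Calr*, calreticulin, a chaperone of class I folding, was 410, 363 and 326 FPKM in Con., 374, 367 and 309 FPKM in PTZ, and 307 and 394 FPKM in Q808. *Pdia3*, its partner thiol oxidoreductase, showed a log2 difference of -0.19 for PTZ against Con. None of the 7 proteasome counterparts and activators passed either, with or without those libraries, and their median log2 difference was 0.04 between PTZ and Con. In Q808 against PTZ it was -0.14, beside 0.10 over all genes. *Psmb7* and *Psmb5*, constitutive catalytic-core subunits, were at -0.04 and -0.01 for PTZ against Con.

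Few regulators passed. Of the 18 tested of 20 listed, none passed between PTZ and Con. or between Q808 and Con., and 1 passed for Q808 against PTZ: *Irf3*, the transcription factor that starts the type I interferon response, which was 15.1, 16.0 and 25.1 FPKM in PTZ and 33.4 and 26.7 FPKM in Q808. Its log2 difference was 0.71 ± 0.28 (SE), and 1.92% of all genes passed in that comparison. In the striatum-low libraries alone, *Jak2* passed higher and *Irf7* and *Irf9* lower between PTZ and Con. (9.81% of all genes passed), *Irf3* and *Irf7* passed higher between Q808 and PTZ (9.26%), and none passed between Q808 and Con. By limma-voom *Nlrc5* passed higher between Q808 and Con. *Nlrc5*, the transactivator of class I genes, was 0.10 to 0.31 FPKM throughout, and *Ifng* was listed at 0 in all 8 libraries. *Ifngr1*, a chain of the interferon gamma receptor, was the most abundant of the list with a mean of 31.1 FPKM, followed by the kinase *Jak1* with 26.5 FPKM.

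Interferon-induced genes are the usual companions of the class I route. Of 18 genes, 2 passed between PTZ and Con. (*Ifit3* and *Xaf1*, both higher, beside 2.53% of all genes), 1 between Q808 and PTZ (*Bst2*, higher, beside 1.92%), and 4 for Q808 against Con. (*Ifit2*, *Ifit3*, *Ifitm3* and *Xaf1*, all higher, where 3.07% of all genes passed in that direction). Their median log2 difference was 0.03, 0.34 and 0.40 in these comparisons, beside -0.04, 0.10 and 0.04 over all genes. *Ifitm3*, which blocks virus entry, was 15.2, 11.2 and 14.2 FPKM in Con., 15.8, 11.8 and 23.0 FPKM in PTZ, and 20.8 and 27.0 FPKM in Q808. *Ifit3*, which binds viral RNA complexes, was 1.17, 1.51 and 1.32 FPKM in Con., 2.39, 3.41 and 3.51 FPKM in PTZ, and 4.41 and 2.06 FPKM in Q808. *Xaf1*, a pro-apoptotic interferon target, showed a log2 difference of 0.76 between PTZ and Con. and 0.84 between Q808 and Con., and *Ifit2* of 0.63 in the latter. *Bst2*, which tethers virus particles, was 5.13, 2.29 and 8.31 FPKM in PTZ and 12.1 and 11.4 FPKM in Q808. PTZ-3 held the highest value in 11 of the 18 genes, the library that was also highest for *Psmb8* and *Psmb9*. It had the highest FPKM total of the 8 libraries as well. It was highest for 4 of 7 proteasome counterparts and activators, 5 of 23 other class I genes and 1 of 7 loading genes. The share of all genes highest in PTZ-3 was not counted. Without the 3 striatum-high libraries, 2 of the 18 rose and 6 fell for PTZ against Con. (median -0.38), and 7 rose for Q808 against PTZ (median 0.79), where 9.81% of all genes passed in the first comparison and 9.26% in the second. In the same setting all 4 choroid plexus markers passed lower between PTZ and Con. (median -2.63), and all 4 choroid plexus (median 4.02) and all 4 meningeal fibroblast markers (median 1.43) passed higher between Q808 and PTZ, with 1 Q808 library left, and their part was not tested. With all libraries, 9 of the 18 were above 0 and 9 below for PTZ against Con., so the list had no direction there. In the striatum-low libraries, with 1 Q808 library left, its median for Q808 against Con. was 0.415, beside 0.048 over all genes. Calls from that 1 library are not listed, and the median does not show which of the 4 genes called with all libraries would hold.

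**Figure D4:**
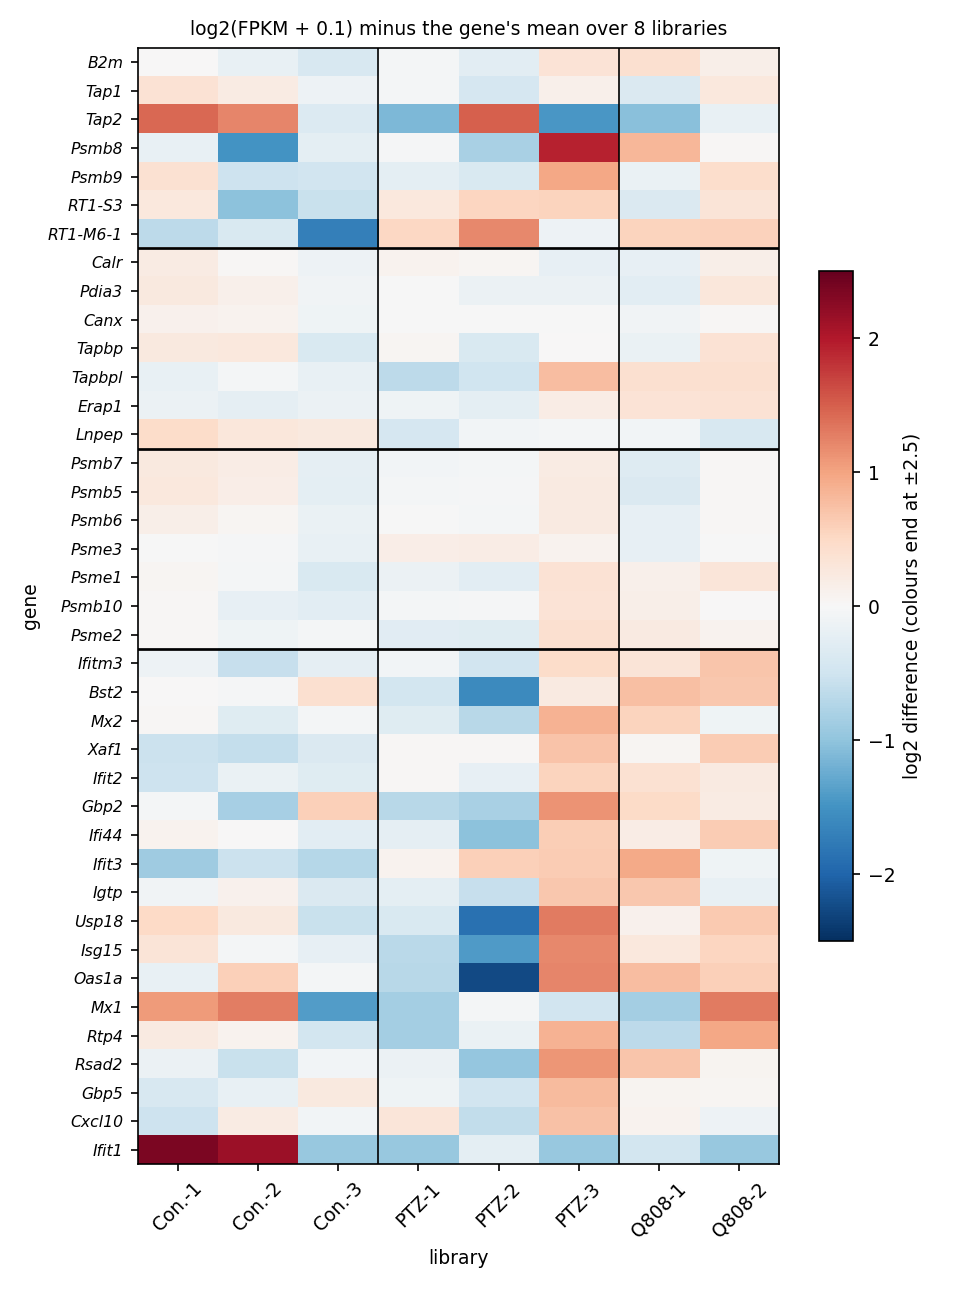
Log2(FPKM + 0.1) minus the gene's own mean over 8 libraries (colour, red above and blue below the mean) for the 7 genes and the peptide-loading, proteasome and interferon-induced lists, top to bottom, in the Con., PTZ and Q808 libraries. The loading and constitutive proteasome rows are pale in all libraries, and PTZ-3 is the reddest column of the interferon-induced block, with the highest value in 11 of 18 genes.

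Of 31 class I heavy-chain genes other than the 2 members, 23 were tested. With all libraries 1 passed between PTZ and Con., 1 between Q808 and PTZ and 2 between Q808 and Con., where 2.53, 1.92 and 3.46% of all genes passed. Of these, *H2-Q7-ps1*, a class I-related sequence whose symbol marks a pseudogene, passed lower for PTZ against Con. and higher in both Q808 comparisons, at 0 to 1.08 FPKM, while *RT1-A2*, a classical class I gene, passed higher for Q808 against Con. Among the striatum-low libraries, 1 passed higher (*RT1-CE4*) and 3 lower (*RT1-M3-1*, *RT1-T24-4* and GeneID100364500) between PTZ and Con. In that setting 3 passed higher between Q808 and PTZ (*H2-Q7-ps1*, *RT1-CE5* and *RT1-T24-4*), and between Q808 and Con. 2 passed higher (*RT1-A2* and *RT1-CE4*) and 1 lower (GeneID102546968), beside 9.81, 9.26 and 4.71% of all genes. *RT1-A2* was 2.93, 3.22 and 3.94 FPKM in Con. and 6.82 and 5.10 FPKM in Q808. The sum over all 33 class I genes was 50.1 ± 10.02 FPKM (SD, n = 3) in Con., 52.0 ± 5.21 (n = 3) in PTZ and 57.4 ± 16.3 (n = 2) in Q808, so the total did not separate the groups. *RT1-S3* was 13.2, 6.22 and 11.2% of that sum in Con., 16.4, 19.2 and 16.8% in PTZ, and a mean of 11.5 ± 0.651% (SD, n = 2) in Q808. Many class I genes are near-identical copies, and how the authors' counting divided reads among them is not given in the sources used here, so the split between *RT1-S3*, *RT1-M6-1* and their relatives is uncertain.

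**Figure D5:**
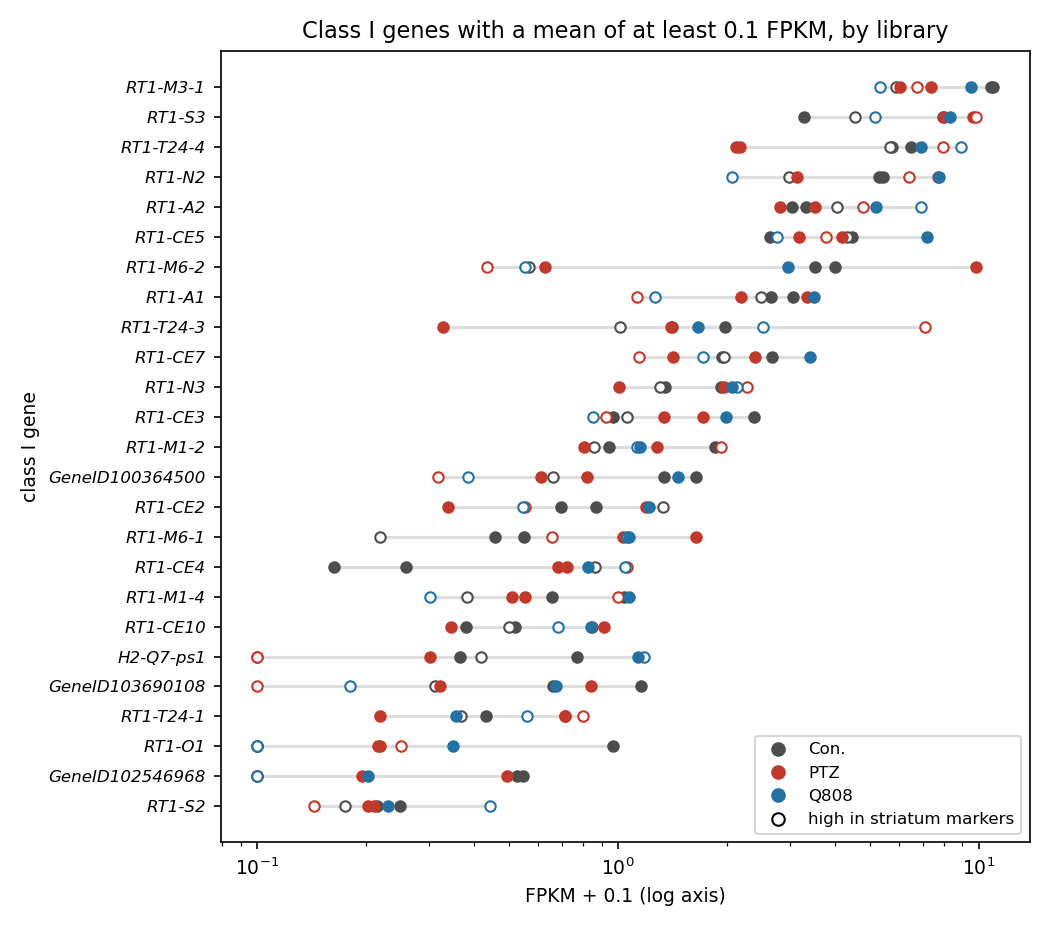
FPKM + 0.1 (log axis) of the class I genes with a mean of at least 0.1 FPKM, 1 point per library, coloured by group, with open circles for libraries high in striatum markers. *RT1-M6-2* spans 0.334 to 9.70 FPKM and *RT1-T24-3* 0.228 to 6.98 FPKM, with both extremes of each in PTZ rats.

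The spread between libraries was wide in this family. Of the 13 class I genes with a mean of at least 1 FPKM, 2 (15.4%) differed by over 5-fold between libraries. Of all 12563 genes past that threshold, 5.99% did. The median ratio of highest to lowest library was 2.99 for the class I genes and 1.81 for all. The class I genes had means of 1.145 to 7.736 FPKM, and the wider set was not matched to them for level or reads. *RT1-M6-2*, the neighbour in name of *RT1-M6-1*, was 3.42, 3.90 and 0.468 FPKM in Con., 0.527, 9.70 and 0.334 FPKM in PTZ, and 0.452 and 2.85 FPKM in Q808. It was high in Con.-1, Con.-2 and PTZ-2, the 3 libraries with the most *Tap2* reads, and its correlation with *Tap2* was 0.913 over 8 libraries.

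Class I-like genes, which share the class I fold, added 2 calls. Of 5 tested of 6, *Fcgrt*, the neonatal Fc receptor, whose light chain is B2m, and *Procr*, the endothelial protein C receptor, passed higher for Q808 against Con. *Fcgrt* was 16.6, 14.6 and 11.2 FPKM in Con. and 25.1 and 20.6 FPKM in Q808. *Procr* was 0.863, 0.727 and 0.665 FPKM in Con. and 1.29 and 1.42 FPKM in Q808. Both calls stand beside 3.07% of all genes called higher. None of the 5 passed in the other comparisons with all libraries, though limma-voom called *Fcgrt* higher between Q808 and PTZ, beside 2.39% of all genes. In the striatum-low libraries *Hfe*, which regulates iron uptake, passed lower between PTZ and Con., beside 9.81% of all genes. With 1 Q808 library left there, the median log2 difference of the list was 0.797 for Q808 against PTZ, beside 0.157 over all genes. For Q808 against Con. it was 0.398, beside 0.048.

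Markers of other cells moved with some of these values. All 9 microglial markers were above 0 on the log2 scale for Q808 against Con., with *Aif1* and *Itgam* passing, and their summed FPKM was 117 to 134 in Con., 114 to 187 in PTZ and 144 to 266 in Q808. The 2 libraries with the highest sum, Q808-1 and PTZ-3, were also the 2 with the most *B2m* and *Psmb8*, and both are striatum-high. All 6 oligodendrocyte markers were above 0 for Q808 against Con., none passed, and all 6 were highest in Q808-1. All 6 endothelial markers were above 0 for Q808 against Con., with *Cldn5* and *Tie1* passing. Between PTZ and Con., *Tmem119* of the microglial list, *Pecam1* of the endothelial list and *Lyz2*, a lysozyme of myeloid cells, passed higher. These calls stand beside 2.53% of all genes, and those between Q808 and Con. beside 3.46%. The calls above are with all libraries, where the median log2 difference between Q808 and Con. was 0.737 for microglial and 0.597 for endothelial markers. With the striatum-high libraries left out, 1 Q808 library remained, so only medians are given for Q808 against Con. The median log2 difference between Q808 and Con. was then 0.275 for microglial and 0.143 for endothelial markers, beside 0.048 over all genes. It was 1.28 for choroid plexus and 1.14 for meningeal fibroblast markers, and below 0 for dentate granule (-0.059), pyramidal (-0.178) and striatum (-0.172) markers. In that setting, between PTZ and Con., *Tmem119* passed higher and *Emcn* and *Slco1a4* lower. *Col1a1*, *Col1a2* and all 4 choroid plexus markers also passed lower, beside 9.81% of all genes. Of 9 T and NK cell markers, 8 (*Cd8a* and *Nkg7* among them) had a mean under 0.1 FPKM, and the other, *Cd3e*, was 0.32 to 4.36 FPKM. The part of these cells in the member values was not tested.

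By a fixed rule, the 3 genes of 12563 with a mean of at least 1 FPKM whose log2 levels ran most like each member over the 8 libraries are named as a description. *B2m* was nearest to *Cstb* (Pearson r 0.982), *Pdzrn4* and *Rbpms2*, and *Tap1* to *F8a1* (0.989), *Mfsd4b1* and *Rrp15*. *Tap2* was nearest to *Eaf1* (0.928), *RT1-M6-2* and *Wwox*, *Psmb8* to *Cavin3*, *Creg1* (0.969) and *Tgm7*, and *Psmb9* to *Fam229b* (0.985), *Fcf1* and *Bloc1s2*. *RT1-S3* was nearest to a tubulin alpha-1C-like gene (0.932), *Lrrcc1* and *Acat2l1*, and *RT1-M6-1* to *Tmem145* (0.958), *Lfng* and *Calu*. No other member was among the 3 nearest genes of any member, and *Tap2* and *RT1-M6-1*, with means under 1 FPKM, could not be. Between members, r over the 8 libraries ran from -0.785 (*Tap2* and *Psmb8*) to 0.778 (*B2m* and *Psmb8*). The points share the split between striatum-high and striatum-low libraries.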

How the data were processed

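Hippocampal poly-A RNA was sequenced on an MGI T7 instrument. The authors ran Trimmomatic on the reads and took FPKM from Cufflinks, and the deposited files hold these FPKM per gene for each of the 8 rats. HTSeq read counts and a DESeq analysis are described in the methods and were not used here. The submitters' processing notes also name HISAT2, Bowtie2, StringTie and SAMtools without a role, and the genome build is not given in the sources used here. Genes were found by NCBI GeneID, and 20633 of 22601 received a RefSeq symbol (GRCr8).

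Values were analysed as log2(FPKM + 0.1) with limma 3.58.1 (trend, R 4.3.3) on the 15593 genes with a mean of at least 0.1 FPKM, each comparison on its own groups. Genes past an unadjusted p of 0.05 and a 1.5-fold change were called, and p-values were Benjamini-Hochberg adjusted over all tested genes. A fold on this scale understates the change of low genes. The script was tested on simulated data. FPKM proved to be whole multiples of the value of 1 read (tolerance 0.02 reads), so the fewest whole reads per gene were recovered after the data had been seen. Replicates are separate rats. The replicate numbers come from the labels, and deviations of same-numbered PTZ and Con. libraries correlated at 0.21, 0.30 and 0.42. The members and lists were chosen with earlier results of these data known. All members, every pathway-list gene called with all libraries, and otherwise the 2 most abundant of a list were named.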

Additional observations from a re-analysis of the deposited data

How the results depend on the processing

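The number of members called was recomputed with each processing choice changed in turn, and by limma-voom on recovered reads, which was chosen after seeing the data. For PTZ against Con. it fell from 2 to 1 with genes of a mean of at least 1 FPKM (where *RT1-M6-1* is not tested), a 2-fold threshold, or without the 3 striatum-high libraries, and ran from 0 to 2 when 1 library was left out. For Q808 against PTZ it was 0, but 1 with the replicate block (*Psmb8*) and 1 without the striatum-high libraries (*Psmb9*), and 0 to 1 leaving out a library (*RT1-S3*, lower, without Q808-2). For Q808 against Con. it was 1, but 0 with genes of a mean of at least 1 FPKM, 0 after quantile normalization, 2 with the block (*Tap2* and *Psmb8*, while *RT1-M6-1* was no longer called), 2 without the striatum-high libraries, 2 with the striatum list as covariate, and 0 to 2 leaving out a library. The block rests on 2 shared numbers in the Q808 comparisons, where deviations correlated at -0.30 and 0.32 against PTZ and -0.38 and 0.53 against Con. The deviations of 2 Q808 libraries from their own mean are mirror images. These values therefore cannot show whether the numbers pair those rats. Nothing is read from the member counts of fits with 1 Q808 library. Under the block, genes called over the whole table went from 300 to 1894 and from 540 to 1076. With the striatum list as covariate they went from 540 to 1136 of 15593 for Q808 against Con. Without the striatum-high libraries they went from 395 to 1530 for PTZ against Con., 140 of them at an adjusted p under 0.05 (limma), and from 300 to 1444 for Q808 against PTZ. Quantile normalization turned the Q808 against PTZ split of 212 higher and 88 lower into 130 higher and 142 lower.

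These log2 differences changed direction. For PTZ against Con., *B2m* was -0.061 and *Psmb9* -0.25 without the striatum-high libraries, and *Psmb9* ran from -0.11 to 0.61 leaving out a library. For Q808 against PTZ, a pseudocount of 1 gave *Psmb8* -0.021 and *RT1-M6-1* -0.0047, a pseudocount of 0.01 gave *Tap2* 0.35, and voom gave *Tap2* 0.14. Quantile normalization gave *Tap1* -0.21, *Psmb8* -0.20, *Psmb9* -0.20 and *RT1-M6-1* -0.23, and median ratio scaling *Tap1* -0.0019, *Psmb9* -0.048 and *RT1-M6-1* -0.030. *RT1-M6-1* was -0.29 with the block and -0.28 without the striatum-high libraries, and the striatum covariate gave *Psmb8* -0.20 and *Psmb9* -0.057. Leaving out a library, the range was -0.26 to 0.39 for *Tap1*, -0.81 to 0.67 for *Tap2*, -0.51 to 0.85 for *Psmb8*, -0.28 to 0.45 for *Psmb9* and -0.29 to 0.37 for *RT1-M6-1*. For Q808 against Con., *Tap1* ran from -0.52 to 0.13. The cause was not tested. Where a group was left with 1 library, that library was assumed to vary like the others. Depth limits *Tap2*, *RT1-M6-1* and *Psmb8* most.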

Other observations

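Class II genes present peptides to CD4 T cells and are made in the brain mainly by microglia and macrophages. With all libraries they were called in 1 comparison. Of 10 tested, 4 passed for Q808 against PTZ: *Cd74*, *RT1-Db1* and GeneID108348139 higher and *RT1-DMb* lower, beside 1.92% of all genes, while none passed for PTZ against Con. or for Q808 against Con. *Cd74*, the invariant chain, was 7.97, 5.67 and 8.11 FPKM in PTZ and 9.60 and 17.0 FPKM in Q808, and 12.01, 5.34 and 10.99 FPKM in Con. Without the 3 striatum-high libraries, with 1 library left in Q808, the class II median was 1.15 for Q808 against PTZ, beside 0.157 over all genes. For Q808 against Con. it was 0.632, beside 0.048. Between PTZ and Con. it was -0.155, beside -0.111, and *RT1-Bb* passed lower, where 9.81% of all genes passed. Class II calls in both Q808 comparisons of that setting rest on 1 Q808 library and are not listed here. By limma-voom on all libraries, GeneID108348139 passed higher for Q808 against Con., beside 3.79% of all genes. In the striatum-low libraries the medians for Q808 against PTZ were 4.02 for the 4 choroid plexus and 1.43 for the 4 meningeal fibroblast markers. The part of those tissues was not tested.

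Several class II genes were near 0 in some rats of a group and not in others. *RT1-DMa*, a peptide-exchange chaperone, was 5.10 FPKM in Con.-1, 0.05 FPKM in Con.-2 and 2.60 FPKM in Con.-3. *RT1-DMb*, its partner chain, was 0.08, 0.89 and 0 FPKM in the same rats, so the library with the most *RT1-DMa* did not hold the most *RT1-DMb*. GeneID108348139 was 0.08, 0.03 and 2.91 FPKM in Con., 0, 0.10 and 0 FPKM in PTZ, and 4.07 and 1.76 FPKM in Q808.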
